A study of Homo sapiens with 6 samples.

Results

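RNA for β-catenin and the complex that marks it for destruction was examined in DU145 cells, a human metastatic castration-resistant prostate cancer cell line. The 9 genes were taken by name, by their place in the pathway, from the 27381 genes of the deposited table: CTNNB1, APC, AXIN1, AXIN2, GSK3A, GSK3B, CSNK1A1, BTRC and FBXW11. The labels give 6 libraries, with 2 each for cells that received a scrambled sgRNA (Scr), cells with CD24 knocked out and cells with RCC2 knocked out. All cells had been through CRISPR/Cas9 with a GFP-bearing plasmid, sorting for GFP and clonal outgrowth, and the sources used here do not say which clones were sequenced, so clone and knockout cannot be told apart. The table gives 1 value per gene and condition in FPKM, which corrects fragment counts for the length of the transcript and the size of the library. The libraries of a condition were thus not given separately. The RCC2 KO column carries a name that the labels also give to a single library, and whether it holds 1 library or both is unknown. No SD, test or p-value could be obtained from these values, and no difference has a replicate check. The depth behind the values is unknown.

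β-Catenin, the product of CTNNB1, links cadherins to the actin cytoskeleton and also enters the nucleus as a transcriptional coactivator. In the absence of a Wnt signal it is held by the scaffold proteins APC and AXIN1 or AXIN2, phosphorylated first by casein kinase 1α (CSNK1A1) and then by GSK3 (GSK3A and GSK3B), and handed to a ubiquitin ligase through the F-box proteins β-TrCP1 (BTRC) and β-TrCP2 (FBXW11). Wnt signals halt this cycle, so that β-catenin accumulates and activates TCF/LEF target genes, of which AXIN2 is a classic example. The pathway is controlled largely at the level of protein, through phosphorylation and degradation, and RNA levels of these genes do not by themselves establish β-catenin activity. The study probed β-catenin, AXIN2 and APC as proteins by Western blot. It also measured AXIN2 mRNA in LNCaP cells, and examined the Wnt/β-catenin pathway in its RNA sequencing by gene set enrichment. The question here is what the RNA of the single genes showed in the deposited values.

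CD24 and RCC2 RNA did not follow the knockout labels, and every direction below rests on the labels as given. The paper checked its knockout clones in DNA, from Sanger reads, and in protein, on blots and, for CD24, in a flow cytometer. A CRISPR/Cas9 edit need not lower the RNA of the edited gene. Whether a knockout failed or a label is wrong was thus not tested by these RNA levels. CD24 was at 93.2 FPKM (Scr), 309 FPKM in the column labelled CD24 KO and 214 FPKM in the column labelled RCC2 KO, and RCC2 was at 37.8, 14.2 and 41.8 FPKM in the same order. The epithelial markers KRT8, KRT18, KRT19 and EPCAM ranged from 44.9 to 348 FPKM over the 3 columns. KRT8, at 336, 149 and 348 FPKM, and KRT18, at 293, 141 and 305 FPKM, were past 2-fold lower than Scr in the column labelled CD24 KO. KRT19, at 83.5, 113 and 107 FPKM, was higher there, with a log2 change of 0.43, and EPCAM was at 58.9, 44.9 and 58.6 FPKM. The part of these differences in the results was not tested. The 7 markers of leukocytes, endothelial cells, fibroblasts and hepatocytes reached at most 0.678 FPKM, with PTPRC and CD3E at 0 in every column. In bulk RNA, fewer cells that express a gene and less of its RNA per cell cannot be told apart.

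All 9 genes were detected in every column, and their levels covered a wide range. CSNK1A1 was highest, at 93.9 FPKM in Scr, 91.5 FPKM in the column labelled CD24 KO and 101 FPKM in the column labelled RCC2 KO. CTNNB1 itself was at 63.1, 61.8 and 67.3 FPKM in the same order, above the level of 89.5% of the 12822 genes compared in Scr. The order from highest to lowest in Scr was CSNK1A1, GSK3A, CTNNB1, FBXW11, GSK3B, APC, AXIN1, BTRC and AXIN2, and the same order held in both other columns apart from an exchange of GSK3A and CTNNB1. In Scr these neighbors in the order, GSK3A and CTNNB1, differed 1.05-fold, and APC and AXIN1 differed 1.06-fold. Between FBXW11 and GSK3B there was a 2.68-fold step, and between BTRC and AXIN2 a 5.86-fold step. Whether neighboring levels differ beyond the spread between libraries could not be examined.

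**Figure D1:**
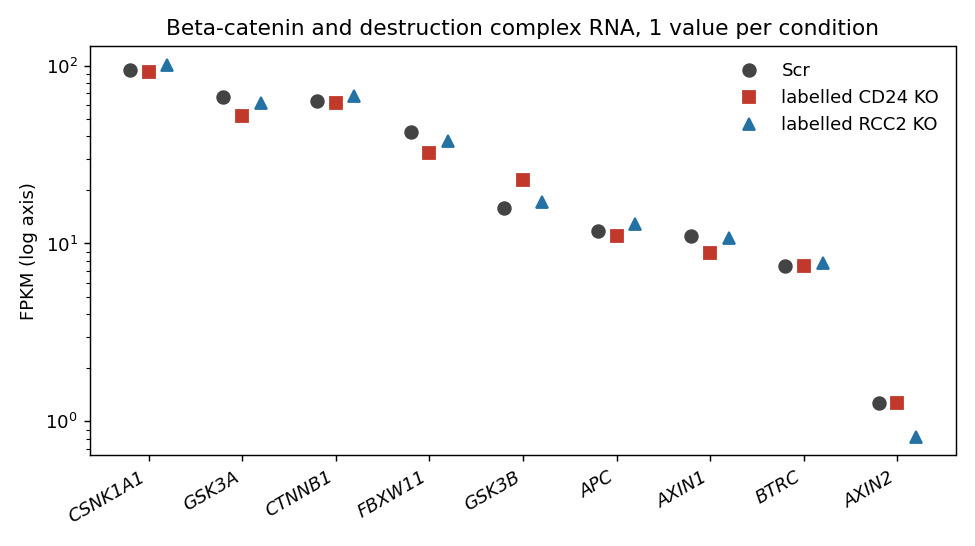
Deposited FPKM (log axis) of the 9 genes in the 3 columns, 1 point per gene and condition with no error because single libraries are not given. CSNK1A1 lies highest in each column and AXIN2 lowest, and the points of most genes lie close together, with GSK3B and AXIN2 the most spread out.

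Changes were computed as differences of log2(FPKM + 1) among the 12822 genes with at least 1 FPKM in at least 1 column, and a gene past 2-fold took the place of a differentially expressed gene. The pseudocount of 1 understates the change of low genes, AXIN2 above all. None of the 9 genes was past 2-fold in the column labelled CD24 KO against Scr, where 5.69% of all genes compared were, in either direction. None was past 2-fold in the column labelled RCC2 KO against Scr either, against 1.20% of all genes, nor between both knockout columns, against 8.31%. At these percentages fewer than 1 of 9 genes would be past 2-fold in each comparison, so the absence of such genes does not set the complex apart. Against Scr, 6 genes lay lower and 3 lay higher in the column labelled CD24 KO, and the median of their log2 changes was -0.037, beside -0.034 for all genes. Likewise 4 lay lower and 5 higher in the column labelled RCC2 KO, where the median was 0.060, beside -0.0036 for all genes. Both comparisons use the same Scr values. Directly between the knockout columns, 7 genes were higher and 2 lower in the column labelled RCC2 KO. The median log2 difference of the 9 genes was 0.14, beside 0.017 for all genes. With columns rescaled to equal sums it was -0.055, beside -0.17 for all genes, so both shifted with the scaling. In both comparisons with Scr all 9 genes lay within the central 95% of the changes of all genes, and 3 of them in the column labelled CD24 KO (GSK3A, GSK3B and FBXW11) and 2 in the column labelled RCC2 KO (AXIN2 and FBXW11) lay outside the central 50%.

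**Figure D2:**
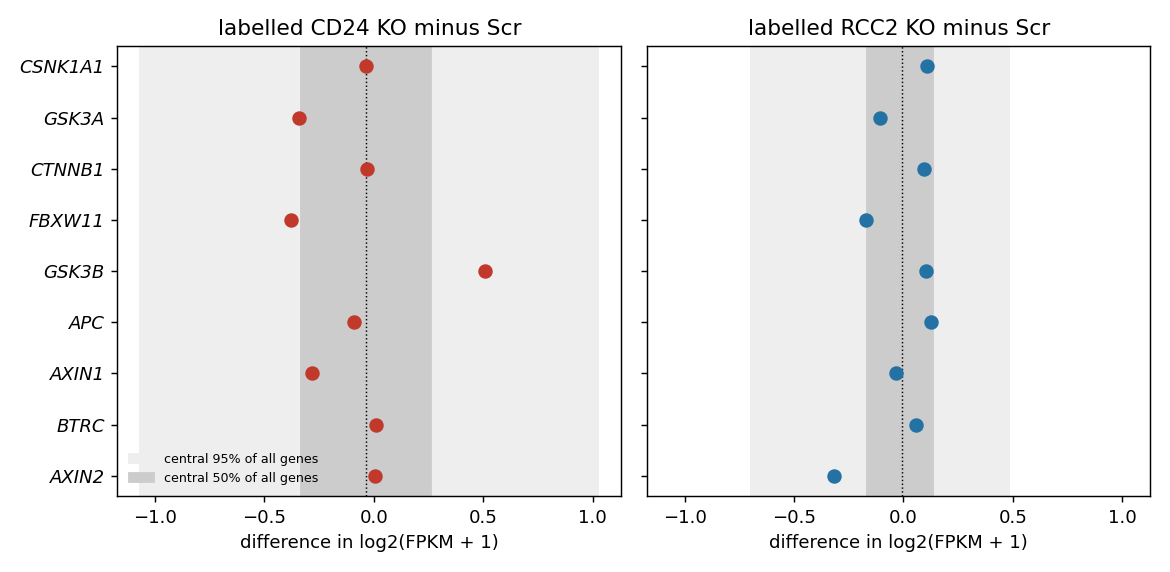
Difference in log2(FPKM + 1) from Scr of each gene in the column labelled CD24 KO (left) and the column labelled RCC2 KO (right), over bands for the central 50% and 95% of the 12822 genes compared and a dotted line at their median. All 9 points lie within the outer band on both sides, with GSK3B farthest to the right on the left side and AXIN2 farthest to the left on the right side.

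The deposited columns do not sum to the same total. They hold 451272 FPKM in Scr, 388764 FPKM in the column labelled CD24 KO, where the mitochondrial ribosomal RNA RNR2 is listed at 0, and 447005 FPKM in the column labelled RCC2 KO. When each column was rescaled to the same sum, the median log2 change of all genes in the column labelled CD24 KO went from -0.034 to 0.16. Small negative changes in that column can therefore turn positive with the scaling, as those of CTNNB1, APC and CSNK1A1 did, while BTRC stayed between 0.0066 and 0.21 under every alternative. Relative to the median of all genes, the changes in the column labelled CD24 KO under that rescaling were -0.30 for GSK3A, 0.57 for GSK3B, -0.33 for FBXW11 and -0.26 for AXIN1, and those of the other 5 genes lay between -0.050 and 0.050. Ratios of FPKM between genes of 1 column are not altered by rescaling it.

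CTNNB1 RNA differed little between the columns. The log2 change was -0.029 in the column labelled CD24 KO and 0.093 in the column labelled RCC2 KO, and 94.5% and 67.0% of all genes compared had moved at least as far. The sign in the column labelled CD24 KO turned with the scaling, to 0.18 after rescaling to equal sums and 0.16 after quantile normalization, whereas the change in the column labelled RCC2 KO stayed between 0.070 and 0.11 under every setting. Relative to the median of all genes, CTNNB1 was at 0.0048 and 0.096. The table places CTNNB1 on chromosome 3 from 41240915 to 41281944, in coordinates read as hg19.

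APC and AXIN1, the scaffolds that hold β-catenin, were at similar levels. APC, on chromosome 5 from 112043202 to 112181936, was at 11.7 FPKM (Scr), 11.0 FPKM in the column labelled CD24 KO and 12.9 FPKM in the column labelled RCC2 KO. The log2 changes were -0.089 and 0.13, and 84.0% and 57.0% of all genes had moved at least as far. The sign in the former turned to 0.11 when columns were rescaled to equal sums, while APC was higher than in Scr in the column labelled RCC2 KO under every setting, by 0.096 to 0.14. AXIN1, on chromosome 16 from 337440 to 402676, was at 11.0, 8.89 and 10.8 FPKM, with log2 changes of -0.28 and -0.033. AXIN1 lay below Scr in both columns under every setting, by -0.31 to -0.094 in the column labelled CD24 KO. The 17 compared genes around AXIN1, which lies near the end of its chromosome, had a median log2 change of -0.33 in that column, so AXIN1 lay with its neighbors.

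AXIN2, a scaffold and at the same time a product of the pathway, was the lowest of the 9 genes. It was at 1.27 FPKM (Scr), 1.27 FPKM in the column labelled CD24 KO and 0.819 FPKM in the column labelled RCC2 KO. The Scr level lay above only 8.28% of the genes compared. AXIN2 was thus level in the first 2 columns and 1.55-fold lower in the column labelled RCC2 KO than in Scr, the largest ratio among the 9 genes in that comparison. On the log2(FPKM + 1) scale the change was 0.0038 in the column labelled CD24 KO, where its sign turned with the scaling, and -0.32 in the column labelled RCC2 KO. The latter ranged from -0.63 with no pseudocount to -0.11 with a pseudocount of 5, and was below 0 under every setting that kept AXIN2, which a minimum of 1 FPKM in every column removes. Low genes vary widely in this table. Among 1235 other genes with 1 to 2 FPKM in Scr, 27.6% differed from Scr by at least the same ratio in the column labelled RCC2 KO, and 21.7% were at least as much lower. AXIN2, on chromosome 17 from 63524683 to 63557740, lay below most of its neighbors in that column. Of the 20 compared genes around it, 18 had higher log2 changes, and the median of the 20 was 0.013. Their changes ranged from -0.71 to 0.39, so AXIN2 lay within the range of its neighbors. The ratio of AXIN1 to AXIN2 within a column was 8.70 in Scr, 6.98 in the column labelled CD24 KO and 13.1 in the column labelled RCC2 KO.

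The GSK3 paralogs differed from Scr in opposite directions in the column labelled CD24 KO. GSK3A and GSK3B are closely related kinases that phosphorylate β-catenin after priming and act in the complex redundantly. GSK3A, on chromosome 19 from 42734338 to 42746736, was at 66.5 FPKM (Scr), 52.2 FPKM in the column labelled CD24 KO and 61.7 FPKM in the column labelled RCC2 KO. GSK3B, on chromosome 3 from 119540802 to 119813264, was at 15.8, 22.8 and 17.0 FPKM. GSK3A was therefore 1.27-fold lower and GSK3B 1.45-fold higher than Scr in the column labelled CD24 KO, with log2 changes of -0.34 and 0.51. Of all genes compared, 44.1% and 27.7% had moved at least as far, so neither change was unusual in size by itself. The directions held under every setting, from -0.35 to -0.13 for GSK3A and from 0.42 to 0.73 for GSK3B. The changes in the column labelled RCC2 KO were -0.11 and 0.10.

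The ratio of GSK3A to GSK3B, which rescaling a column does not alter, was 4.22 in Scr, 2.29 in the column labelled CD24 KO and 3.63 in the column labelled RCC2 KO. GSK3B made up 19.2%, 30.4% and 21.6% of the FPKM of the pair. The summed level of the pair was 82.2 FPKM in Scr, 74.96 FPKM in the column labelled CD24 KO and 78.7 FPKM in the column labelled RCC2 KO. The 20 compared genes around GSK3B had a median log2 change of -0.037 in the column labelled CD24 KO, and 17 of them lay below GSK3B. Around GSK3A the median was -0.13, and 17 of 20 genes lay above GSK3A. GSK3A thus lay below most of its neighbors and GSK3B above most of its own.

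The promoters of this pair are shown because the paralogs differed in direction in the column labelled CD24 KO. Promoters of 7 of the 9 genes were matched in the RefSeq table used here (GRCh38.p14), and those of AXIN2 and BTRC were not analysed here. The 250 bases before the start site are printed 5′ to 3′ on the strand of the gene, for GSK3A chr19:42242603-42242852 and for GSK3B chr3:120094448-120094697, both on the minus strand, and capitals mark GGGCGG (the GC box) and CCAAT (the CCAAT box) on either strand.
GSK3A: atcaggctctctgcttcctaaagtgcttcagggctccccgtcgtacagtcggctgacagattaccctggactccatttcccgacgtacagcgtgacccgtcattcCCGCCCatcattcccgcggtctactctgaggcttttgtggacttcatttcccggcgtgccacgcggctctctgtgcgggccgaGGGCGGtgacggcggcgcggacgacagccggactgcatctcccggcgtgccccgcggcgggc
GSK3B: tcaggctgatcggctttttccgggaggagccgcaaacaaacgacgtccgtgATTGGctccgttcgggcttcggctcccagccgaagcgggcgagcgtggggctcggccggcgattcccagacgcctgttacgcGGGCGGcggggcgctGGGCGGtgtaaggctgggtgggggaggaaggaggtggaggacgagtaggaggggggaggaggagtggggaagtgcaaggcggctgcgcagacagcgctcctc
GSK3A held 2 GC boxes and no CCAAT box, and GSK3B held 2 GC boxes and 1 CCAAT box. Of 35116 promoter entries of the same length, 42.6% held a GC box and 32.0% a CCAAT box, so both are common. The GC content was 65.2% and 68.8%, beside a median of 58% for all entries. Letters of the TCF core motif (CTTTGA or CTTTGT on either strand) were found in neither, nor in the window of any other of the 7 genes, and in 22.8% of all entries.

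**Figure D3:**
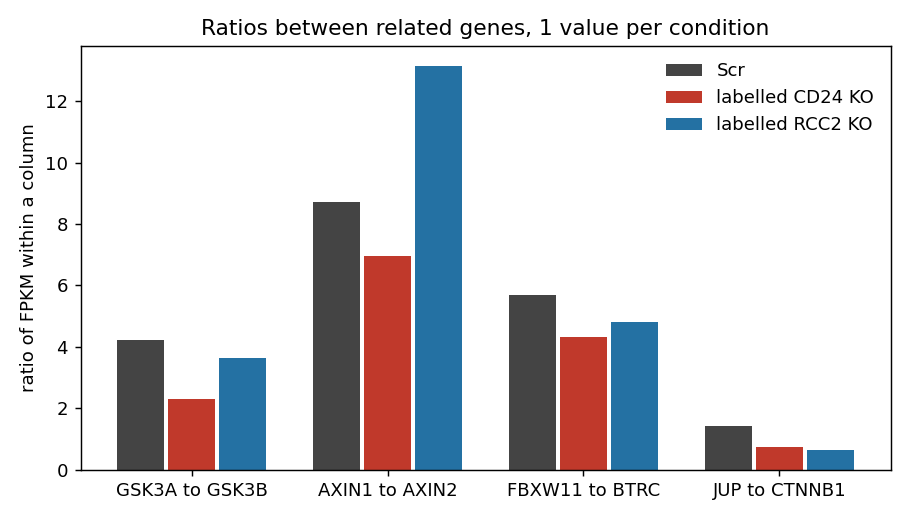
Ratio of FPKM between related genes within each column (bars from 0), 1 value per condition with no error. The ratio of GSK3A to GSK3B is lowest in the column labelled CD24 KO at 2.29, that of AXIN1 to AXIN2 highest in the column labelled RCC2 KO at 13.1, and that of JUP to CTNNB1 lower in both knockout columns than in Scr.

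CSNK1A1, the kinase that primes β-catenin for GSK3, was nearly level, with log2 changes of -0.037 and 0.11 in the columns labelled CD24 KO and RCC2 KO. The sign in the former turned with the scaling, to 0.18 after rescaling to equal sums. The table places it on chromosome 5 from 148875457 to 148931115.

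Of the F-box proteins that recognize phosphorylated β-catenin, FBXW11 was the more abundant RNA. FBXW11, on chromosome 5 from 171288556 to 171433877, was at 42.3 FPKM (Scr), 32.3 FPKM in the column labelled CD24 KO and 37.5 FPKM in the column labelled RCC2 KO. It was 1.31-fold and 1.13-fold lower than in Scr, with log2 changes of -0.38 and -0.17, and was below Scr in both columns under every setting. Of all genes compared, 40.0% and 44.4% had moved at least as far. BTRC, on chromosome 10 from 103113790 to 103317078, was at 7.43, 7.49 and 7.79 FPKM, the smallest spread of the 9 genes at 1.05-fold between the highest and the lowest column. The ratio of FBXW11 to BTRC was 5.69, 4.32 and 4.81. The genes around FBXW11 had median log2 changes of -0.028 and 0.042, above its own changes in both columns.

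**Figure D4:**
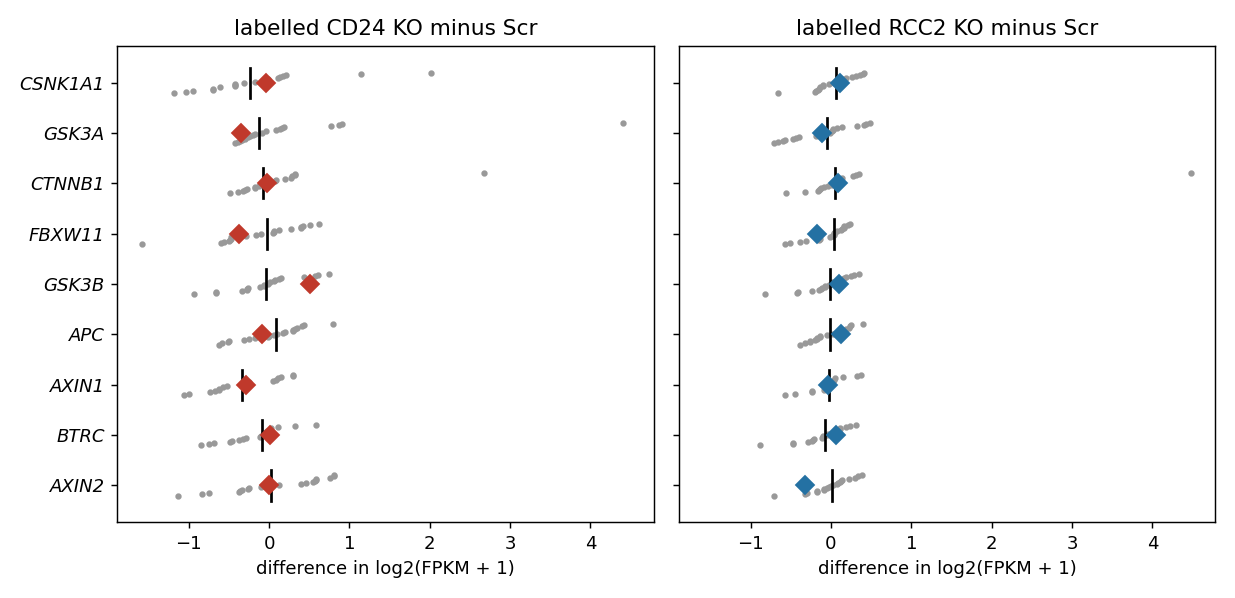
Difference in log2(FPKM + 1) from Scr of each gene (diamonds) and of up to 10 compared genes on each side of it (gray points, black bar at their median), for the column labelled CD24 KO (left) and the column labelled RCC2 KO (right). GSK3B lies above 17 of its 20 neighbors on the left, and AXIN2 below 18 of its 20 neighbors on the right.

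The genes with patterns most like those of CTNNB1, APC and AXIN2 were sought by the distance between pairs of log2 changes against Scr, over 3 columns, among genes with at least 1 FPKM in every column. SLC43A3, ATF7IP and DMAP1 lay nearest to CTNNB1, with a distance of at most 0.0030. LCLAT1, NSUN3 and DIAPH1 lay nearest to APC, within 0.0056, and CARHSP1, RTTN and LRFN1 nearest to AXIN2, within 0.0084. With only 3 columns such patterns are shared by many genes. Within a distance of 0.1 lay 648 genes for CTNNB1 and 558 for APC, while 186 genes, 1.61% of those searched, lay as near to AXIN2. AXIN2 itself, at 0.819 FPKM in the column labelled RCC2 KO, falls short of the minimum set for these genes. The pseudocount also compresses its change, so nearness to AXIN2 does not mean an equal FPKM ratio. CARHSP1 went from 20.5 FPKM in Scr to 16.2 FPKM in the column labelled RCC2 KO, a smaller ratio than that of AXIN2.

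The partners of the complex were examined in lists that were set with earlier results of these data known. Among 13 further components of the complex, 11 were compared. These comprise other casein kinase 1 isoforms and the subunits of PP2A, a phosphatase found with AXIN and APC. Of these, 7 lay below and 4 above Scr in the column labelled CD24 KO, where the median was -0.10, beside -0.034 for all genes. With columns rescaled to equal sums it was 0.11, beside 0.16 for all genes. The counts below and above Scr were the same in the column labelled RCC2 KO, where the median was -0.096. None was past 2-fold against Scr. CSNK1E, at 95.2 FPKM in Scr, had log2 changes of 0.042 and -0.46 in the columns labelled CD24 KO and RCC2 KO. The catalytic subunit PPP2CA was at 87.6, 60.9 and 96.2 FPKM in Scr, the column labelled CD24 KO and the column labelled RCC2 KO, and the scaffold subunit PPP2R1A at 61.0, 44.5 and 57.0 FPKM. The other scaffold subunit, PPP2R1B, was at 18.7, 9.53 and 20.6 FPKM. Its log2 difference of 1.04 between the knockout columns was the only one past 2-fold in this list (9.09%, beside 8.31% of all genes). AMER1 and APC2 were below 1 FPKM in every column and were not compared.

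Within the ubiquitin ligase that receives β-catenin, the core subunits differed from each other. SKP1, the adaptor that holds the F-box protein, was at 130 FPKM (Scr), 122 FPKM in the column labelled CD24 KO and 133 FPKM in the column labelled RCC2 KO. CUL1, the cullin scaffold, was at 57.6, 32.7 and 61.3 FPKM. RBX1, the RING subunit that recruits the ubiquitin-charged enzyme, was at 38.2, 19.2 and 33.4 FPKM. CUL1 and RBX1 thus had log2 changes of -0.80 and -0.95 in the column labelled CD24 KO, short of 2-fold, while SKP1 was at -0.090. SIAH1, SIAH2 and JADE1, ligases that can act on β-catenin outside this complex, had log2 changes of 0.39, 0.25 and -0.24 in that column and of 0.13, -0.14 and 0.32 in the column labelled RCC2 KO. The median of these 6 genes in the column labelled CD24 KO was -0.16, beside -0.034 for all genes. With columns rescaled to equal sums it was 0.043, beside 0.16 for all genes.

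Tankyrases mark AXIN for degradation and are the target of XAV939, an inhibitor the study used in other experiments. TNKS was at 10.5, 12.4 and 9.23 FPKM and TNKS2 at 18.7, 20.7 and 21.8 FPKM in Scr, the column labelled CD24 KO and the column labelled RCC2 KO. RNF146, the ligase that recognizes AXIN marked by tankyrase, was at 6.72, 6.67 and 6.81 FPKM, and USP34, which removes ubiquitin from AXIN, at 31.3, 30.2 and 31.1 FPKM. All 4 genes of AXIN turnover had log2 changes between -0.16 and 0.23 against Scr. Of the GSK3-binding proteins, FRAT1 was at 1.00, 1.09 and 0.608 FPKM, FRAT2 at 2.39, 1.66 and 1.84 FPKM and GSKIP at 15.2, 17.0 and 17.3 FPKM, none past 2-fold.

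Upstream of the complex, the co-receptor LRP5 was at 29.1 FPKM (Scr), 12.9 FPKM in the column labelled CD24 KO and 20.4 FPKM in the column labelled RCC2 KO. Its log2 changes were -1.12 and -0.49. In the column labelled CD24 KO it was the 1 of 5 genes of the receptor relay past 2-fold against Scr (20%, beside 5.69% of all genes). None of the 5 was past 2-fold in the column labelled RCC2 KO. The other co-receptor, LRP6, was at 12.3, 12.6 and 11.6 FPKM. The dishevelled genes DVL1, DVL2 and DVL3, whose products carry the signal from the receptors to AXIN, had log2 changes of -0.32, 0.22 and 0.19 in the column labelled CD24 KO and 0.067, -0.29 and -0.12 in the column labelled RCC2 KO.

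At cell junctions β-catenin binds cadherins, and its close relative plakoglobin (JUP) can take the same place. JUP was at 89.0 FPKM (Scr), 44.7 FPKM in the column labelled CD24 KO and 42.0 FPKM in the column labelled RCC2 KO. The log2 changes of -0.98 and -1.06 were taken against the same Scr value, and both were negative under each scaling tried. The ratio of JUP to CTNNB1 went from 1.41 in Scr to 0.724 and 0.624, so that CTNNB1, the lesser RNA of the pair in Scr, was the greater in both knockout columns. P-cadherin (CDH3) was at 45.1, 111 and 48.2 FPKM, with a log2 change of 1.28 in the column labelled CD24 KO, and E-cadherin (CDH1) was at 27.9, 52.6 and 23.7 FPKM, with 0.89. α-Catenin (CTNNA1), which joins β-catenin to actin, was at 176, 117 and 173 FPKM, and p120 catenin (CTNND1) at 87.3, 79.9 and 77.9 FPKM. N-cadherin (CDH2) was listed at 0 in every column.

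In the nucleus β-catenin works with TCF/LEF factors and coactivators. Of 13 such genes 12 were compared, and in both knockout columns 6 were higher and 6 lower than in Scr, with medians of -0.037 and -0.0055 and none past 2-fold in any comparison. The former turned to 0.17 when columns were rescaled to equal sums, beside 0.16 for all genes. The TCF genes differed from each other in the column labelled CD24 KO, with log2 changes of 0.75 for TCF7L1, -0.86 for TCF7L2 and -0.49 for TCF7. In the column labelled RCC2 KO their changes were -0.18, -0.12 and -0.32. TCF7L1 was at 5.92 FPKM in the column labelled CD24 KO and 2.63 FPKM in the column labelled RCC2 KO. Between these columns it was short of 2-fold with the pseudocount of 1 and past 2-fold without a pseudocount. The coactivator BCL9L was at 49.0, 40.9 and 50.8 FPKM, PYGO2 at 31.6, 33.9 and 32.1 FPKM and CHD8, a negative regulator, at 26.5, 22.5 and 28.2 FPKM.

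Besides AXIN2, 20 genes known as β-catenin targets were listed, of which 11 were compared. TCF7 and LEF1 stand both in this list and among the nuclear partners. LGR5 and ASCL2 were listed at 0 in every column. Against Scr, 8 of the 11 lay lower and 3 higher in the column labelled CD24 KO, 2 of them past 2-fold (18.2%, beside 5.69% of all genes). Their median was -0.18, beside -0.034 for all genes. With columns rescaled to equal sums it was -0.034, beside 0.16 for all genes. In the column labelled RCC2 KO 5 lay lower and 6 higher, 1 of them past 2-fold (9.09%, beside 1.20% of all genes), and the median of 0.13 turned to -0.013 with no filter on low values. The genes past 2-fold were DKK1, a secreted Wnt antagonist, at -1.56 and CD44, a hyaluronan receptor, at 1.33 in the column labelled CD24 KO, and the growth factor BMP4 at 1.86 in the column labelled RCC2 KO. The targets past 2-fold thus lay on both sides of Scr. RNF43, a ligase that removes Wnt receptors, was at 2.55, 1.09 and 3.53 FPKM and past 2-fold between the knockout columns. Its log2 change was -0.76 in the column labelled CD24 KO. Without the pseudocount, RNF43 and BMP4 would also count as past 2-fold there, RNF43 lower and BMP4 higher than Scr. CCND1, the cyclin D1 gene, was at 154, 110 and 181 FPKM in Scr, the column labelled CD24 KO and the column labelled RCC2 KO, and MYC at 77.6, 94.1 and 72.4 FPKM.

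**Figure D5:**
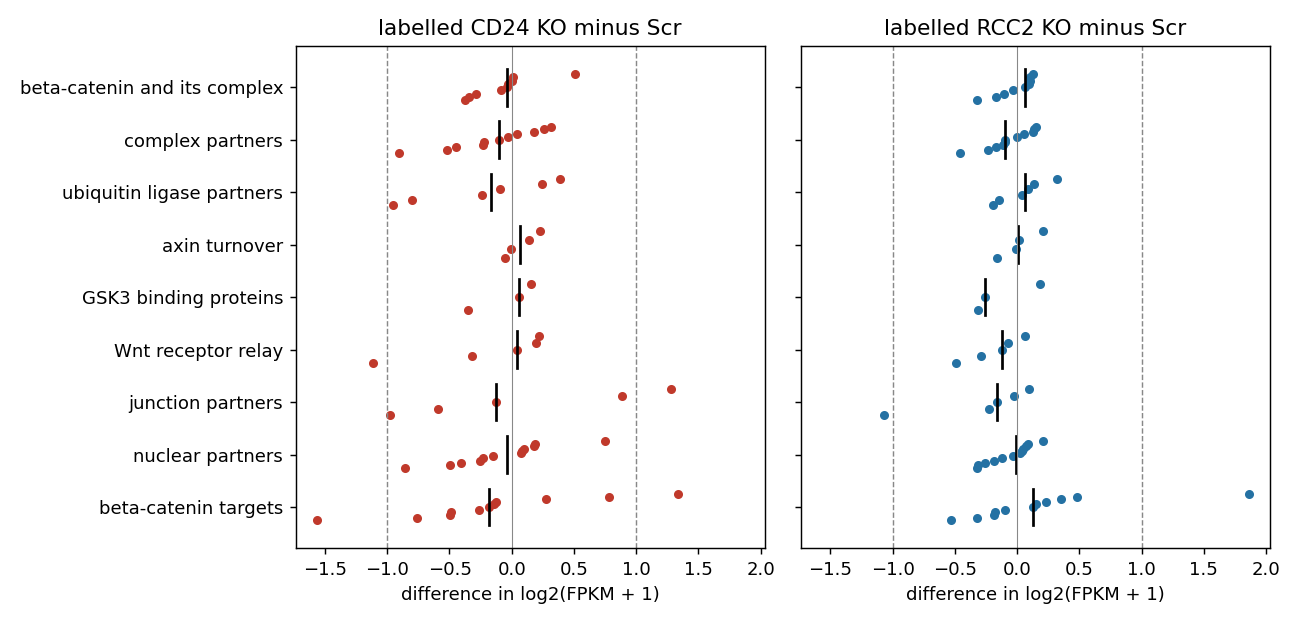
Difference in log2(FPKM + 1) from Scr for each compared gene (points) of the lists named at the left, with the median of each list as a black bar and dashed lines at 2-fold, for the column labelled CD24 KO (left) and the column labelled RCC2 KO (right). β-Catenin and its complex lie inside the 2-fold lines on both sides, while LRP5, CDH3, DKK1 and CD44 on the left and JUP and BMP4 on the right lie outside them.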

How the data were processed

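RNA from 6 DU145 libraries, 2 per condition, was sequenced by the authors. The submitters' processing notes name HISAT, StringTie, Cufflinks and GATK without role or version. The labels name an RNA kit applied to total RNA, whereas the methods name a stranded mRNA kit. The deposited table holds FPKM values made by the authors, with 1 column per condition, so that each value is the authors' value and no replicate test could be run. No genome build is named in the sources used here. Of 25136 symbols found once in RefSeq, 15.4% overlapped their GRCh38 position, so coordinates were read as hg19, with starts written from 1.

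Genes with at least 1 FPKM in at least 1 column (12822 genes) were compared as log2(FPKM + 1), and a gene at least 2-fold changed was counted. A limma fit was to be used only had the table held separate libraries. The 9 genes and the lists were chosen with earlier results of these data known, and the ratios between paired genes and the promoters shown were chosen after the values had been seen. From each list were named genes past 2-fold in any comparison and the 3 with the highest mean FPKM, and any gene of lists of up to 6. Genes below 1 FPKM, TCF7, TCF7L1, TCF7L2 and LEF1 were named outside this rule, after their values were seen. Neighbors were 10 compared genes on each side. Calculations were tested on simulated data. Alternatives were pseudocounts of 0.1 and 5, quantile normalization, equal column sums, median centring, no filter, a minimum of 1 FPKM in all columns and a 1.5-fold minimum. Leaving out the pseudocount was chosen after seeing the data. Calculations ran in Python 3.11.15 with pandas 2.3.3, NumPy 2.4.6 and SciPy 1.17.1, and plots in matplotlib 3.10.9.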

Additional observations from a re-analysis of the deposited data

How the results depend on the processing

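No paired analysis was possible because the table holds 1 value per condition, and for the same reason no replicate could be left out. A value was taken as moved when it differed from the reported one by over 0.1 on the log2 scale, since neither an SD nor a depth is known. The count of the 9 genes past 2-fold was 0 under every alternative in each comparison, and it was also 0 at a 1.5-fold minimum with the pseudocount of 1 and the deposited scaling. Other settings put genes past 1.5-fold, such as AXIN2, 1.55-fold lower in the column labelled RCC2 KO than in Scr with no pseudocount, and GSK3B, with a log2 change of 0.73 in the column labelled CD24 KO with equal column sums. The median log2 change of the 9 genes in the column labelled CD24 KO was 0.17 with equal column sums, against -0.037 as reported. For all genes these medians were 0.16 and -0.034. Between the knockout columns the median of 0.14 was 0.041 with quantile normalization and -0.055 with equal column sums. For all genes it was 0.0024 and -0.17 under these settings. In the column labelled RCC2 KO against Scr the median of the 9 genes stayed between 0.041 and 0.077. Of 213 values for single genes under alternatives, 38 moved and 12 changed sign, and of 117 values for ratios between paired genes 14 moved and none changed sign. Over all genes, the count past 2-fold in the column labelled RCC2 KO went from 154 to 67 with at least 1 FPKM in all columns, 54 with a pseudocount of 5, 443 with a pseudocount of 0.1, 466 with none and 676 at 1.5-fold. In the column labelled CD24 KO the count of 730 became 278, 1262, 1297 and 2709 under the last 4 of these and 1108 with equal column sums, and between the knockout columns 1066 became 380, 1850, 1892, 3580 and 1690.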
